A study of Mus musculus with 9 samples.

Results

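The Schlafen genes (Slfn) of the mouse are followed here in primed and naive CD8+ T cells. The members are the 7 genes Slfn1, Slfn2, Slfn3, Slfn4, Slfn5, Slfn8 and Slfn9, found by symbol in the deposited expression table, out of 23936 named genes in all. All 7 had a row, and 6 of them reached the level set for testing. Slfn4 stayed under it in every library.

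The cells were OT-I cells, CD8+ T cells of a mouse line that carries a transgenic T cell receptor for an ovalbumin peptide. There were 3 groups of 3 libraries. MLN-primed cells came from the mesenteric lymph nodes (MLN) that drain the gut, and their titles carry the word oral. Spleen-primed cells came from the spleen, and their titles carry the letters iv. Naive cells came from the spleen. All 3 groups share the transgenic receptor, the organ and the route change together between the primed groups, and the labels give neither the time after priming, the sort gate, the age of the mice nor whether libraries came from separate animals. The p-values therefore measure the spread between libraries, which may be technical. The title of the series asks about retinoic acid signals during priming and intestinal resident memory cells, and the design compares the transcriptomes of the 3 groups.

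Schlafen proteins are found in mammals, and several of the mouse genes are induced by interferon. Slfn1 and Slfn2 encode the short forms, Slfn3 and Slfn4 the intermediate forms, and Slfn5, Slfn8 and Slfn9 the long forms that end in a helicase-like domain. Slfn1 slows the growth of mouse T-lineage cells when it is overexpressed. Slfn2 is required for the quiescence of mouse T cells: in the elektra mutant of Slfn2, T cells lose the resting state and die when they are activated. Slfn2 protein has also been reported to bind transfer RNAs and shield them from cleavage in activated mouse T cells. Forced expression of Slfn8 impairs the proliferation of mouse T cells, Slfn3 is known from the differentiation of rodent gut epithelium, and Slfn4 is known from myeloid cells.

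The members lie side by side on chromosome 11 of the mouse build GRCm38.p6, within 264 kb. From low to high coordinates they are Slfn5 (chr11:82951349-82964850, plus strand), Slfn9 (chr11:82974316-82991830, minus), Slfn8 (chr11:83002125-83020810, minus), Slfn2 (chr11:83065112-83070678, plus), Slfn1 (chr11:83116820-83122670, plus), Slfn4 (chr11:83175172-83190216, plus) and Slfn3 (chr11:83191330-83215154, plus). The related transcript Slfn10-ps lies between Slfn8 and Slfn2 (chr11:83028123-83040533). Adjacent members did not always share a direction. Against naive cells, Slfn8, Slfn2 and Slfn1 were lower in MLN-primed cells and Slfn4 and Slfn3 had higher values, while Slfn8 and Slfn9, adjacent genes of the same strand, differed in direction.

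The promoter windows of 3 genes are printed because they belong to the long forms, which moved apart. Each is the 250 bases before an annotated start, from RefSeq on GRCm38.p6, read 5′ to 3′ on the strand of the gene. Capitals mark the match to the interferon-stimulated response element core, searched on both strands as GAAA, any 2 bases and GAAA again. The windows are chr11:82951852-82952101 for Slfn5 (plus strand), chr11:83020811-83021060 for Slfn8 (minus strand) and chr11:82991831-82992080 for Slfn9 (minus strand). The Slfn5 window lies within the gene coordinates given above, before an annotated start inside them. Slfn8 has another annotated start, with the window chr11:83020723-83020972, not printed, where the same match begins 136 bases before the start.
Slfn5: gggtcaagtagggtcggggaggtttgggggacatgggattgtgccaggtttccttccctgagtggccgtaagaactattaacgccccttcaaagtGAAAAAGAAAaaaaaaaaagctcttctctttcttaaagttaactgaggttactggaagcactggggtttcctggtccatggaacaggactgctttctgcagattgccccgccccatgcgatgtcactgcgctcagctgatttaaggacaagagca
Slfn8: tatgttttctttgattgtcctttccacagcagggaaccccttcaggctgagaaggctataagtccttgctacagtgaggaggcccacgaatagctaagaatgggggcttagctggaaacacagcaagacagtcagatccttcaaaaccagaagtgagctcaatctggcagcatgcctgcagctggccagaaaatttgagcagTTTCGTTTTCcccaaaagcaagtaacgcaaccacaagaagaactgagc
Slfn9: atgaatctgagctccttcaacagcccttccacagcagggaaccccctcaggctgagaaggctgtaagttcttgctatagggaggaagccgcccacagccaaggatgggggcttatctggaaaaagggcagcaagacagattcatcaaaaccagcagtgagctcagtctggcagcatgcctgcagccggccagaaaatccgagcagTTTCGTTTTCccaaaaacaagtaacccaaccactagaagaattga
The Slfn8 and Slfn9 windows were 80% identical (204 of 255 aligned positions), and every other pair of members had windows 42.9% to 50.4% identical. Slfn8 and Slfn9 hold the same letters, TTTCGTTTTC, with the first base 48 and 45 bases before the start. The match in Slfn5, GAAAAAGAAA, begins 155 bases before the start and runs into a stretch of A. Of 32536 RefSeq windows of this length, 2.98% hold the motif. No match was found in the windows of Slfn1, Slfn2, Slfn3 and Slfn4. TTCNNNGAA, a STAT-type motif held by 7.04% of windows, and GTAAACA, a forkhead (FOXO) motif held by 3.17%, were in none of the 7 genes' windows. Slfn8 was lower in primed cells and Slfn9 was not. Any part of the match in these levels was not tested.

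The short and intermediate forms share a different stretch, which was noticed after the windows were read. The letters ACTTCCTGG, printed in capitals, were taken as the longest stretch common to the windows of these 4 genes. Their presence in all 4 was therefore fixed by the search. They occur in 0.698% of all windows, a share that cannot show an enrichment here. The 40-base contexts, all on the plus strand, are chr11:83116731-83116770 for Slfn1, chr11:83065042-83065081 for Slfn2, chr11:83191273-83191312 for Slfn3 and chr11:83175098-83175137 for Slfn4.
Slfn1: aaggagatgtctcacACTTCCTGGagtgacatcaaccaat
Slfn2: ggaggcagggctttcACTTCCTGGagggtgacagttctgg
Slfn3: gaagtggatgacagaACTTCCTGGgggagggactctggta
Slfn4: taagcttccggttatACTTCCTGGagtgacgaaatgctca
The stretch begins 74 bases before the start in Slfn1, 55 in Slfn2, 42 in Slfn3 and 73 in Slfn4. It is present in 2 genes that were lower and in 2 genes that had higher values in primed cells than in naive cells. These matches describe letters and not occupied sites.

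Levels are given as FPKM, fragment numbers divided by transcript length and library size, so that genes of different lengths can be set side by side. FPKM keep no read numbers, so their counting error is unknown. The libraries held 613322 to 720410 FPKM in total and 9469 to 9667 genes at 1 FPKM or more, and libraries of the same group correlated at 0.987 to 0.995 across genes. All 8 CD8 T cell markers were present, with summed levels of 2035 to 2105 FPKM in MLN-primed, 2949 to 3054 in spleen-primed and 3735 to 4079 in naive libraries. In bulk RNA, fewer cells of a type and less RNA per cell cannot be told apart.

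The family as a whole was lowest in MLN-primed cells. The 7 genes summed to 88.1 ± 3.95 FPKM in MLN-primed, 153 ± 9.11 in spleen-primed and 352 ± 38.6 in naive cells (SD, n = 3 each), and the 3 ranges did not overlap. This was 0.0138%, 0.0236% and 0.0523% of all FPKM in the same order of groups. The make-up differed as well as the sum. Slfn2 supplied 75.8% of the summed FPKM in MLN-primed, 80.3% in spleen-primed and 57.4% in naive cells. Slfn1 supplied 5.83%, 9.44% and 30.3% in that order. Slfn3 ran the other way, with 11.5% in MLN-primed, 5.66% in spleen-primed and 0.508% in naive cells.

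**Figure D1:**
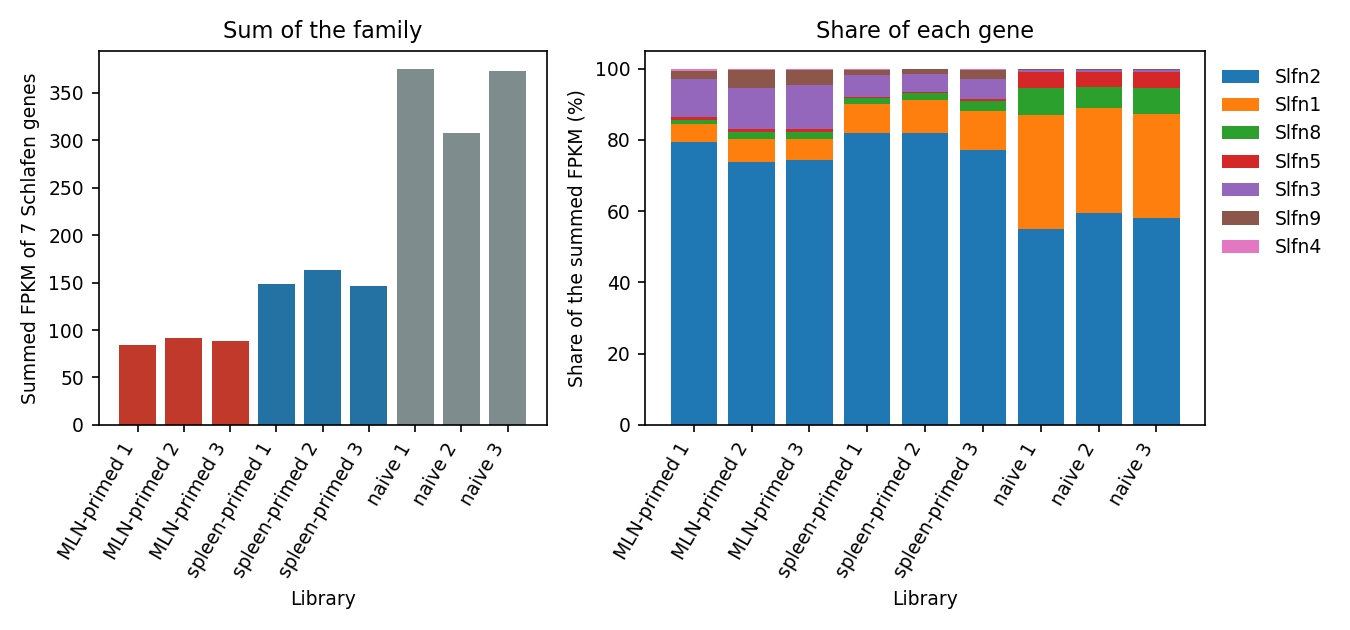
The left panel gives the summed FPKM of the 7 Schlafen genes in each library as bars that start at 0, and the right panel gives the share of each gene in that sum in percent. MLN-primed libraries lie between 84.2 and 92.1 FPKM, spleen-primed between 147 and 164 and naive between 308 and 376, and the Slfn1 share is 29.2% to 32.2% in naive libraries and at most 11.03% in primed ones.

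The order of the genes changed between the groups. In MLN-primed cells the means ran from Slfn2 through Slfn3, Slfn1, Slfn9, Slfn8 and Slfn5 to Slfn4, and only the neighbours Slfn1 and Slfn9 overlapped in range. In spleen-primed cells the order was Slfn2, Slfn1, Slfn3, Slfn8, Slfn9, Slfn5 and Slfn4, with an overlap of Slfn8 and Slfn9. In naive cells it was Slfn2, Slfn1, Slfn8, Slfn5, Slfn3, Slfn9 and Slfn4, with an overlap of Slfn3 and Slfn9. Slfn2 was thus the most abundant and Slfn4 the least abundant member in each group, while Slfn3 stood in the second place in MLN-primed and in the fifth in naive cells.

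**Figure D2:**
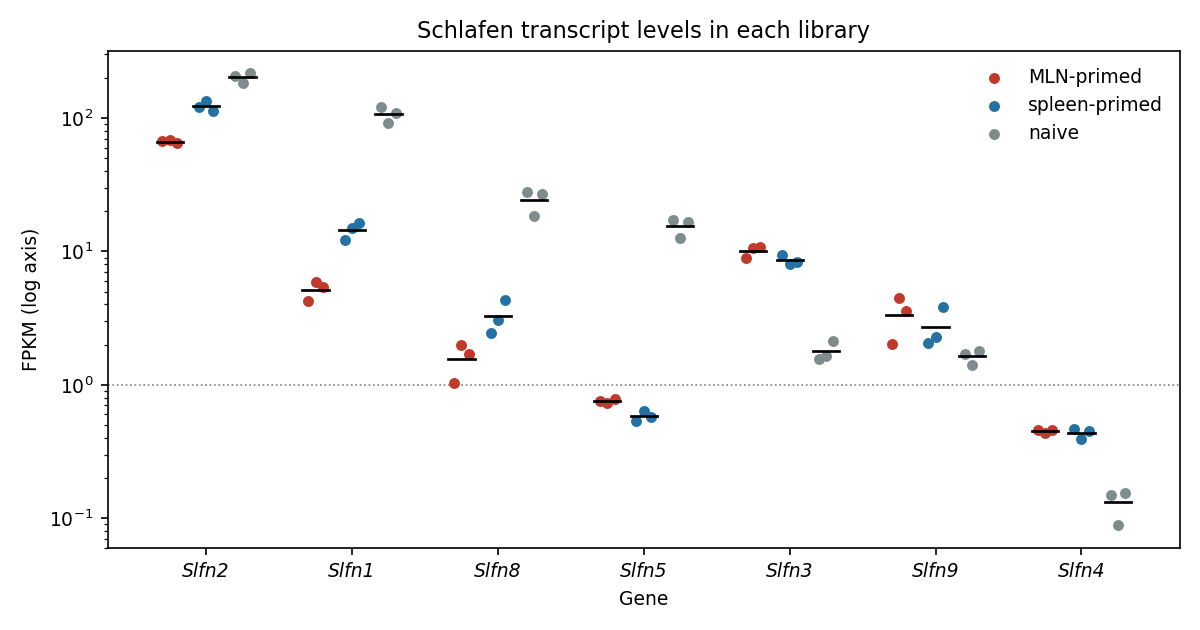
Points are the FPKM of single libraries on a log axis for each Schlafen gene, with MLN-primed, spleen-primed and naive libraries from left to right, black bars at the group means and a dotted line at 1 FPKM. Slfn1, Slfn2 and Slfn8 step up from MLN-primed to spleen-primed to naive libraries, Slfn5 is under 1 FPKM in all primed libraries, and Slfn3 is lowest in naive libraries.

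Each gene was tested on log2(FPKM + 1), a scale that understates the change of low genes, with limma over all 10185 genes that had at least 1 FPKM in at least 3 libraries. A gene is called where the adjusted p is under 0.05. Differences are given as the log2 difference ± its standard error. The comparisons of either primed group with naive cells use the same 3 naive libraries and are not independent of each other.

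Between the primed groups, the MLN-primed cells had less of 3 Schlafen genes and not significantly more of any. Slfn1, Slfn2 and Slfn8 were lower, and Slfn3, Slfn5 and Slfn9 were not called by limma and also missed an unadjusted p of 0.05. Among all genes tested, 30.4% were called in this comparison, 13.1% as lower and 17.3% as higher, against 3 of the 6 tested Schlafen genes called as lower. The median difference of the 6 was -0.287, against 0.03 over all genes.

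Slfn1 had 4.23, 5.88 and 5.37 FPKM in the MLN-primed libraries, against 12.1, 15.0 and 16.2 FPKM in the spleen-primed libraries. Every MLN-primed library was below every spleen-primed library. The mean was 2.80-fold lower in MLN-primed cells (-1.33 ± 0.14, limma adjusted p = 0.000189), and 0.707% of all tested genes differed by at least as much. Slfn2 had 66.8, 67.9 and 65.4 FPKM in the MLN-primed libraries, against 122, 134 and 113 FPKM in the spleen-primed libraries. The groups were apart again, with MLN-primed libraries within a narrow range. The mean was 1.85-fold lower (-0.87 ± 0.08, limma adjusted p = 9.77e-05), a size reached by 3.07% of tested genes.

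Slfn8, a long form, had 1.03, 2.0 and 1.69 FPKM in the MLN-primed libraries, against 2.46, 3.04 and 4.32 FPKM in the spleen-primed libraries. The ranges did not overlap, and the mean was 2.08-fold lower in MLN-primed cells (-0.73 ± 0.21, limma adjusted p = 0.0263). This call was lost without MLN-primed library 1 (-0.57, adjusted p = 0.0682), MLN-primed library 3 (-0.77, adjusted p = 0.0541), spleen-primed library 2 (-0.76, adjusted p = 0.0642) or spleen-primed library 3 (-0.56, adjusted p = 0.0771).

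Slfn5, the other long form that is low in primed cells, had 0.756, 0.735 and 0.788 FPKM in the MLN-primed libraries, against 0.533, 0.638 and 0.575 FPKM in the spleen-primed libraries. These narrow ranges did not overlap, but the difference of 0.15 ± 0.11 was not called (limma adjusted p = 0.355). Not overlapping was common here: 4 of the 7 members and 46.1% of all tested genes had separate ranges. Slfn3 (0.21 ± 0.11, adjusted p = 0.206) and Slfn9 (0.22 ± 0.22, adjusted p = 0.510) overlapped between the primed groups. Slfn4 averaged 0.454 ± 0.0135 FPKM in MLN-primed cells, against 0.436 ± 0.0363 FPKM in spleen-primed cells (SD, n = 3 each) and was not tested.

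Some markers of other cells moved with this comparison. The 12 monocyte and macrophage markers summed to 278 to 467 FPKM in MLN-primed and 1332 to 1543 in spleen-primed libraries, with the largest part from Ly6c2, which activated CD8 T cells also make and which averaged 311 FPKM in MLN-primed cells, against 1279 FPKM in the spleen-primed ones. Ccr2 averaged 29.9 FPKM in MLN-primed and 83.9 in spleen-primed cells. Itgam averaged 9.30 FPKM in MLN-primed and 30.3 in spleen-primed cells. Cd68 averaged 7.69 FPKM in MLN-primed and 15.6 in spleen-primed cells. Of the other defining genes, Emr1 and Cd14 were at 0 in all 3 MLN-primed libraries, and Csf1r averaged 0.0130 FPKM there, against 0.124 FPKM in the spleen-primed libraries. The 6 natural killer cell markers summed to 27.3 to 31.5 FPKM in MLN-primed and 88.5 to 96.8 in spleen-primed libraries. These sums were carried by Klrk1, with 17.2 FPKM in MLN-primed and 63.2 in spleen-primed cells, and Eomes, with 11.9 and 25.7. Ncr1 averaged 0.0100 FPKM in MLN-primed and 0.0185 in spleen-primed cells. The CD8 T cell markers given above were also lower in MLN-primed cells, 5 of 8 by the test. The part of these shifts in the Schlafen differences was not tested.

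Against naive cells, spleen-primed cells had less Slfn1, Slfn2, Slfn5 and Slfn8 and more Slfn3. Slfn5, at 26.7-fold, had the largest ratio of the 7, and Slfn2, the most abundant member, the smallest change of the 4 that were lower. The test called 4 of the 6 genes as lower, 1 as higher and left Slfn9 uncalled, while 75.8% of all tested genes were called, 32.7% as lower and 43.1% as higher. The median difference of the 6 was -1.64, against 0.10 over all genes.

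Slfn5 had 0.533, 0.638 and 0.575 FPKM in the spleen-primed libraries, against 17.3, 12.5 and 16.7 FPKM in the naive libraries. No spleen-primed library reached 1 FPKM (-3.37 ± 0.11, limma adjusted p = 3.04e-09), and 2.52% of tested genes differed by at least as much. Slfn1 had 12.1, 15.0 and 16.2 FPKM in the spleen-primed libraries, against 121, 91.2 and 109 FPKM in the naive libraries. It was 7.42-fold lower in spleen-primed cells (-2.81 ± 0.14, limma adjusted p = 5.51e-08). Slfn8 had 2.46, 3.04 and 4.32 FPKM in the spleen-primed libraries, against 27.7, 18.3 and 27.0 FPKM in the naive libraries. It was 7.43-fold lower in spleen-primed cells (-2.57 ± 0.21, limma adjusted p = 1.94e-06), much like Slfn1 in ratio. Slfn2 had 122, 134 and 113 FPKM in the spleen-primed libraries, against 206, 183 and 216 FPKM in the naive libraries. Its mean was 1.64-fold lower in spleen-primed cells (-0.71 ± 0.08, limma adjusted p = 2.60e-05), and 43.2% of tested genes differed by at least as much. Under quantile normalisation the Slfn2 difference was -1.28 (limma adjusted p = 2.64e-07), and the median of all genes moved by -0.168.

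The intermediate form Slfn3 went the other way. It had 9.45, 8.10 and 8.35 FPKM in the spleen-primed libraries, against 1.57, 1.64 and 2.14 FPKM in the naive libraries. The mean was 4.85-fold higher in spleen-primed cells (1.80 ± 0.11, limma adjusted p = 2.67e-07), and no library of one group came near the other. Slfn9 had 2.05, 2.27 and 3.82 FPKM in the spleen-primed libraries, against 1.72, 1.40 and 1.79 FPKM in the naive libraries. The difference of 0.47 ± 0.22 was not called (limma adjusted p = 0.0819), although the ranges did not overlap. Slfn4 had 0.463, 0.395 and 0.451 FPKM in the spleen-primed libraries, against 0.150, 0.0885 and 0.155 FPKM in the naive libraries, and was too low to be tested. All 7 members had separate ranges here, as had 78.2% of all tested genes.

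Against naive cells, MLN-primed cells had the same members lower and Slfn3 and Slfn9 higher. The test called 4 of the 6 genes as lower and 2 as higher, while 78.7% of all tested genes were called, 33.2% as lower and 45.5% as higher. Slfn1 was 20.8-fold lower in MLN-primed cells at 5.16 ± 0.843 FPKM, against 107 ± 15.0 FPKM in naive cells (SD, n = 3 each; -4.13 ± 0.14, limma adjusted p = 3.02e-09). Only 1.5% of tested genes differed by at least as much. Slfn5 was 20.4-fold lower at 0.759 ± 0.0265 FPKM in MLN-primed cells, against 15.5 ± 2.59 FPKM in naive cells (-3.22 ± 0.11, limma adjusted p = 3.69e-09). Slfn8 was 15.5-fold lower at 1.57 ± 0.497 FPKM in MLN-primed cells, against 24.3 ± 5.24 FPKM in naive cells (-3.30 ± 0.21, limma adjusted p = 2.40e-07). Slfn2 was 3.03-fold lower at 66.7 ± 1.26 FPKM in MLN-primed cells, against 202 ± 17.4 FPKM in naive cells (-1.58 ± 0.08, limma adjusted p = 5.48e-08). Even so, Slfn2 kept a higher level in MLN-primed cells than any other member had there.

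Slfn3 had 8.87, 10.7 and 10.8 FPKM in the MLN-primed libraries, against 1.57, 1.64 and 2.14 FPKM in the naive libraries. It was 5.68-fold higher in MLN-primed cells (2.0 ± 0.11, limma adjusted p = 9.34e-08), with a gap between the groups. Slfn9 had 2.04, 4.46 and 3.56 FPKM in the MLN-primed libraries, against 1.72, 1.40 and 1.79 FPKM in the naive libraries. It was 2.05-fold higher (0.69 ± 0.22, limma adjusted p = 0.0172), a size that 50.5% of tested genes reached, and MLN-primed library 1 lay close to the naive range. The call was lost without naive library 2 (0.62, adjusted p = 0.0594), MLN-primed library 2 (0.50, adjusted p = 0.0681) or MLN-primed library 3 (0.63, adjusted p = 0.0511). Slfn4 had 0.461, 0.438 and 0.462 FPKM in the MLN-primed libraries, against 0.150, 0.0885 and 0.155 FPKM in the naive libraries, with no overlap and no test at this level. All 7 members had separate ranges, as had 80.4% of all tested genes, and the median difference of the 6 tested members was -2.40, against 0.15 over all genes.

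**Figure D3:**
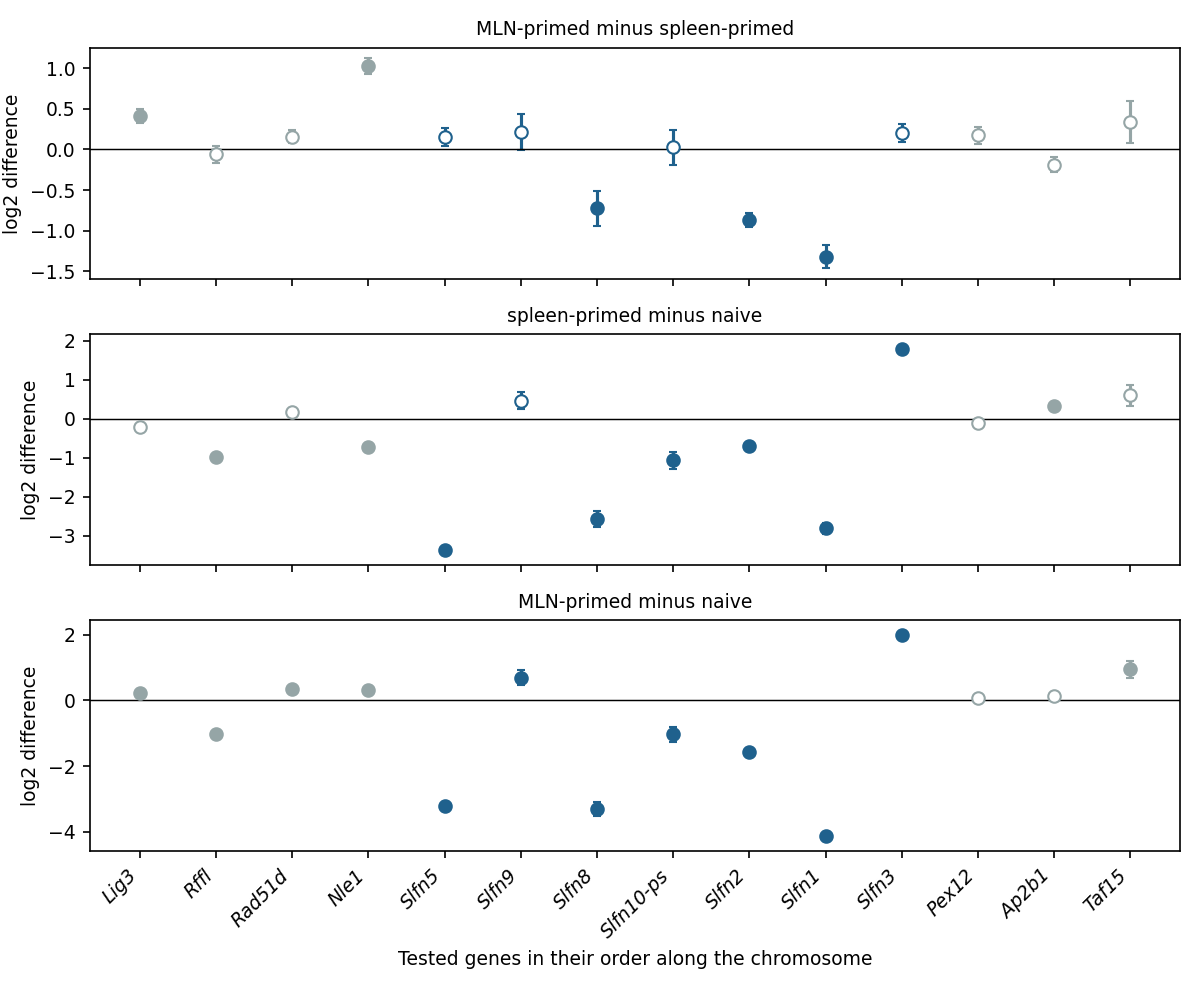
Points are log2 differences of FPKM + 1 with bars of 1 standard error, for the tested Schlafen genes (blue) and their tested neighbours (grey) in their order along the chromosome, with 1 panel for each comparison. Filled points have a limma adjusted p under 0.05. The drop of Slfn5, Slfn8, Slfn2 and Slfn1 against naive cells is interrupted by Slfn9, and Slfn3 stands above 0.

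Markers of other cell types also differed between primed and naive libraries. The 10 dendritic cell and MHC class II markers summed to 38.5 to 50.2 FPKM in MLN-primed, 96.0 to 106 in spleen-primed and 94.8 to 167 in naive libraries. These sums rest on different genes that ran in opposite directions. Itgax, an integrin gene, averaged 42.0 FPKM in MLN-primed, 94.8 in spleen-primed and 1.06 in naive cells. H2-Aa, an MHC class II gene, averaged 0.287 FPKM in MLN-primed, 0.935 in spleen-primed and 33.3 in naive cells. The 9 neutrophil markers in the table summed to 0.329 to 0.444 FPKM in MLN-primed, 0.345 to 1.42 in spleen-primed and 3.58 to 39.1 in naive libraries, with S100a8 at 0 in all MLN-primed libraries. The 12 monocyte and macrophage markers summed to 74.4 to 205 FPKM in naive libraries, below both primed groups, and of the 6 that were tested 4 were higher and 2 lower in each primed group than in naive cells. Itgam averaged 9.30 FPKM in MLN-primed, 30.3 in spleen-primed and 0.326 in naive cells, while Lyz2 averaged 0.170 FPKM in MLN-primed, 0.863 in spleen-primed and 5.79 in naive cells. Slfn4, known from myeloid cells, had its lowest values in these naive libraries, but it was too low in all groups to be tested. Its reads may also be split with Slfn3. The 7 B cell markers summed to 11.2 to 14.5 FPKM in MLN-primed, 6.49 to 8.27 in spleen-primed and 11.1 to 14.9 in naive libraries. The 5 CD4 T cell markers summed to 30.8 to 38.5 FPKM in MLN-primed, 19.4 to 29.2 in spleen-primed and 15.3 to 18.5 in naive libraries. The primed sums were carried by Il2ra, with 24.9 FPKM in MLN-primed, 12.5 in spleen-primed and 0.235 in naive cells, while Cd4 averaged 0.0786 FPKM in MLN-primed, 0.0735 in spleen-primed and 0.212 in naive cells. The 6 natural killer cell markers summed to 6.65 to 15.0 FPKM in naive libraries, below the sums of both primed groups given above. Ncr1, Klra8 and Klra4 ran the other way, with means of 0.375, 0.359 and 0.199 FPKM in naive cells, above both primed groups. The 6 red cell markers summed to 0.346 to 60.1 FPKM in MLN-primed, 2.92 to 30.1 in spleen-primed and 8.14 to 56.8 in naive libraries. The part of these markers in the Schlafen differences was not tested.

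Several members resemble each other closely enough for their reads to be hard to tell apart. In the longest GENCODE transcript of each gene, Slfn8 and Slfn9 were 92.6% identical over 3496 aligned positions, and Slfn3 and Slfn4 were 92.9% identical over 1406. For Slfn3 this transcript has 2834 bases, against 1816 for the one matched to its deposited row, so its shares may differ from those of the measured transcript. Of all 50-base windows, 15.4% of those in Slfn8 and 11.2% of those in Slfn9 recurred exactly in another Schlafen transcript, against 7.97% in Slfn3, 8.37% in Slfn4, 4.27% in Slfn2, 0.606% in Slfn1 and 0 in Slfn5. The read length and the handling of reads with several matches were not stated in the sources at hand, so the split of reads between Slfn8, Slfn9 and Slfn10-ps, and between Slfn3 and Slfn4, is uncertain. Slfn10-ps averaged 1.07 FPKM in MLN-primed, 1.05 in spleen-primed and 3.20 in naive cells. It was lower than in naive cells in spleen-primed (-1.06 ± 0.22, limma adjusted p = 0.00135) and MLN-primed cells (-1.04 ± 0.22, adjusted p = 0.00144), in the direction of Slfn8. Slfn14, the last gene of the cluster, and the related Slfnl1 were listed at 0 in all primed libraries.

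The spread of Slfn1, Slfn8 and Slfn9 within the primed groups ran with a property of the libraries. For each library, the slope of its log2 values against log2 transcript length was taken relative to its group mean. In MLN-primed libraries 1, 2 and 3 the slope was -0.08764, 0.06195 and 0.02569 per doubling of length, and Slfn8, Slfn9 and Slfn10-ps were all lowest in library 1 and highest in library 2. In spleen-primed libraries 1, 2 and 3 the slope was -0.0502, -0.02747 and 0.07767, and Slfn8 and Slfn9 both increased in that order of slopes, with the highest values in library 3. Among the naive libraries, library 2 had the lowest slope and the lowest values of all 3 transcripts. The short form Slfn1 followed the slopes as well, so this was not particular to the long forms. In libraries 1, 2 and 3 it had 4.23, 5.88 and 5.37 FPKM in MLN-primed and 12.1, 15.0 and 16.2 in spleen-primed cells. In naive libraries it had 121, 91.2 and 109 FPKM. Slfn2, Slfn3, Slfn4 and Slfn5 did not follow the full order of slopes in either primed group. The trend removed for the next values was another slope, taken relative to the mean of all 9 libraries. That slope was 0.1097 to 0.1835 in naive libraries. It was -0.1305 to -0.002657 in spleen-primed and -0.1645 to -0.01487 in MLN-primed libraries. Its removal thus also takes out a difference between naive and primed groups. With this length trend taken out of each library, the Slfn8 difference of MLN-primed from spleen-primed cells was -0.73 (limma adjusted p = 0.0146). The slopes of both primed groups lay in similar ranges, so their removal could change the size of this difference little. With the trend removed, Slfn9 was called higher in spleen-primed than in naive cells (0.72, adjusted p = 0.00462) and in MLN-primed than in naive cells (0.94, adjusted p = 0.000826). Removing the trend moved Slfn5 to -2.96 in the MLN-primed comparison with naive cells and to -3.11 in the spleen-primed one.

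**Figure D4:**
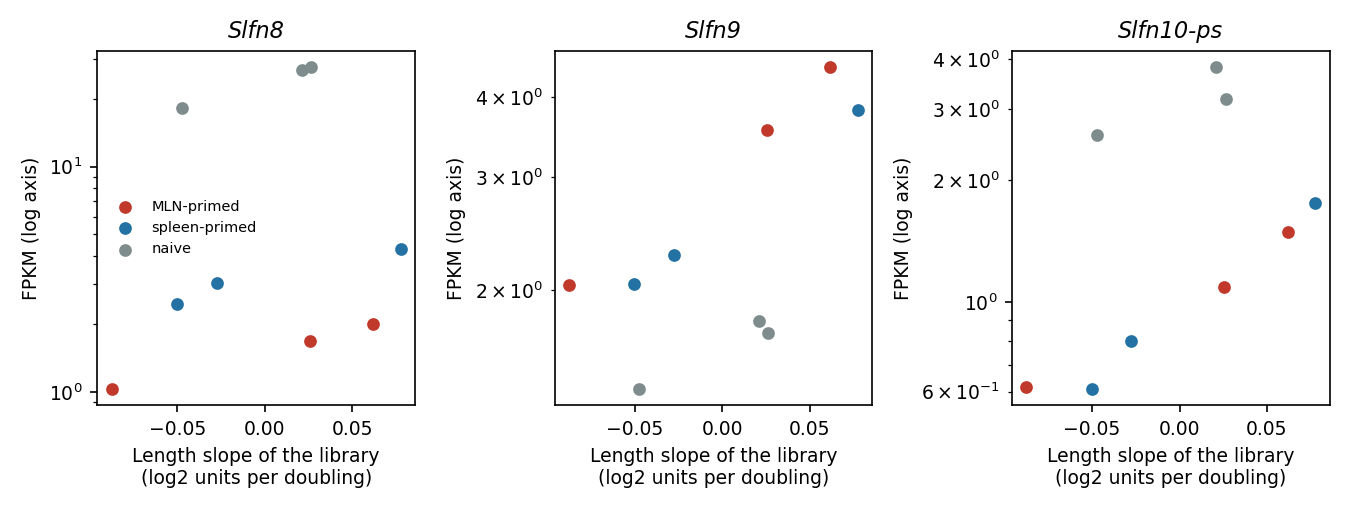
Each point is a library, with the slope of its log2 values against log2 transcript length relative to its group mean on the x axis (log2 units per doubling) and the FPKM of Slfn8, Slfn9 or Slfn10-ps on a log y axis. Within the MLN-primed and the spleen-primed groups the library with the lowest slope has the lowest value and the library with the highest slope has the highest value.

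The Schlafen genes were set beside 24 other genes linked to T cell quiescence, of which 22 were tested. Between MLN-primed and spleen-primed cells, 10 of the 22 were lower, none was higher and 12 were not called, with a median of -0.383; at an unadjusted limma p of 0.05, 13 were lower and 0 higher. Against naive cells, 18 of the 22 were lower and 4 were not called in each primed group, with medians of -1.81 in MLN-primed and -1.23 in spleen-primed cells. Of all genes tested, 13.1% were lower and 17.3% higher between the primed groups. Relative to naive cells, 33.2% were lower and 45.5% higher in MLN-primed cells, and 32.7% were lower and 43.1% higher in spleen-primed cells. Btg1, an antiproliferative gene that promotes messenger RNA decay and T cell quiescence, averaged 8.95 FPKM in MLN-primed, 22.3 in spleen-primed and 201 in naive cells, and it was called in all 3 comparisons. Its difference between the primed groups, -1.23 ± 0.07 (limma adjusted p = 1.18e-05), was near that of Slfn1. Cdkn1b, which encodes the cell cycle inhibitor p27, averaged 12.4 FPKM in MLN-primed, 18.7 in spleen-primed and 45.8 in naive cells, and Klf2, a transcription factor of resting T cells, averaged 131, 183 and 379 FPKM in that order. Both were called lower in each comparison, as were Tcf7, Klf3, Foxo3, Tob1, Btg2, Ets1 and Vsir, which encodes the checkpoint receptor VISTA.

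Other quiescence genes shared with Slfn5 a large difference from naive cells and no call between the primed groups. Bach2, a repressor of effector genes, averaged 0.0891 FPKM in MLN-primed, 0.317 in spleen-primed and 11.1 in naive cells. By the means of the primed groups, Bach2 was lower and Slfn5 higher in MLN-primed cells. Both were under 1 FPKM there, where log2(FPKM + 1) understates a change. Foxo1, which drives Klf2 and homing receptors, averaged 13.0 FPKM in MLN-primed, 14.6 in spleen-primed and 58.4 in naive cells, and differed by -0.16 ± 0.15 between the primed groups (limma adjusted p = 0.472). Tsc2, Runx1 and Stk11, named after their values were seen, were among those not called in any comparison. No quiescence gene was called higher in either primed group than in naive cells, also at an unadjusted limma p of 0.05, unlike Slfn3.

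**Figure D5:**
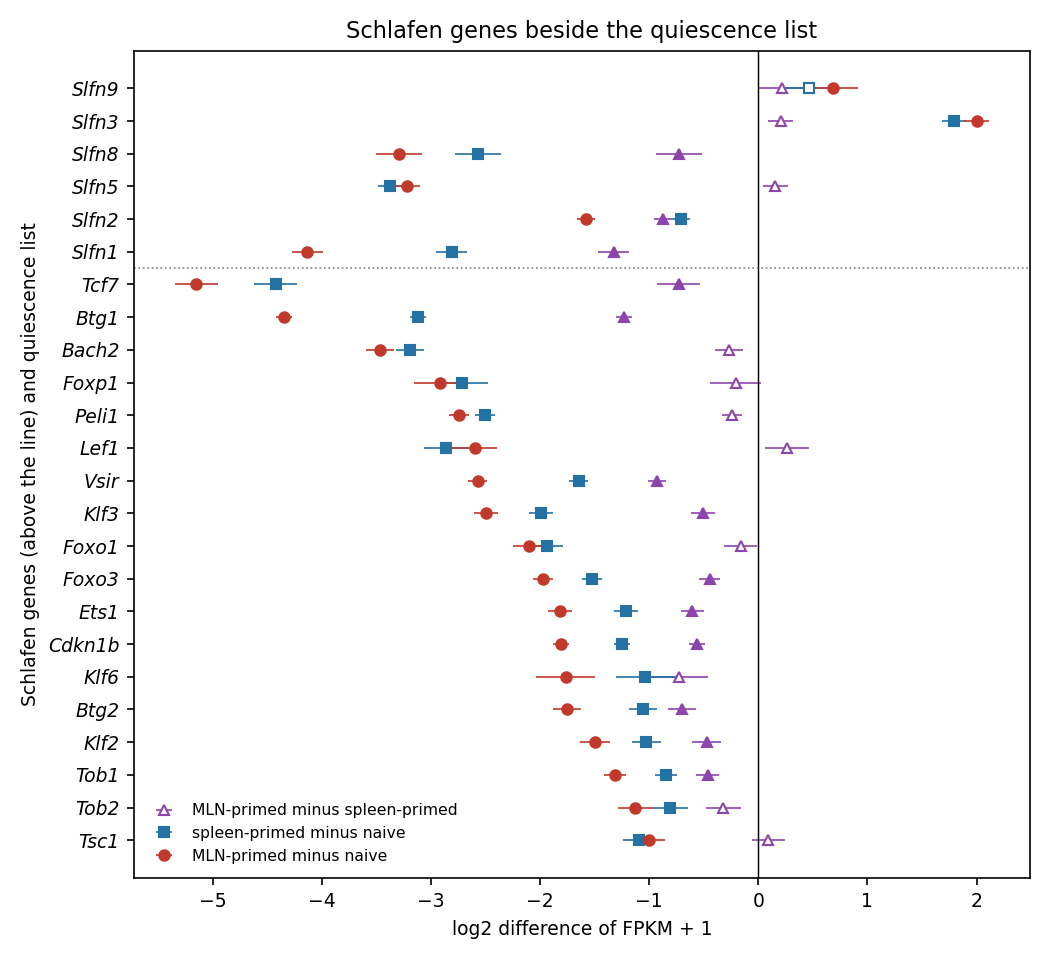
Points are log2 differences of FPKM + 1 with bars of 1 standard error for the 6 tested Schlafen genes, above the dotted line, and for the 18 quiescence genes called in at least 1 comparison, below it. Triangles give MLN-primed minus spleen-primed, squares spleen-primed minus naive and circles MLN-primed minus naive, filled where the limma adjusted p is under 0.05; only Slfn3 and Slfn9 have filled points to the right of 0.

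Interferon-stimulated genes were looked at because several Schlafen genes are members of that response. Of 35 listed genes 34 were in the table and 32 were tested. Between MLN-primed and spleen-primed cells 16 were lower, none was higher and 16 were not called, with a median of -0.437; at an unadjusted limma p of 0.05, 18 were lower and 0 higher. Usp18, a protease that removes ISG15 and dampens interferon signalling, averaged 1.05 FPKM in MLN-primed, 3.56 in spleen-primed and 8.16 in naive cells (-1.15 ± 0.10 between the primed groups, limma adjusted p = 6.91e-05). Zbp1, a nucleic acid sensor, averaged 20.2 FPKM in MLN-primed, 47.3 in spleen-primed and 53.9 in naive cells. Trim30a, a negative regulator of innate signalling, averaged 12.2, 21.4 and 36.0 FPKM in that order. Against naive cells, 27 of the 32 were lower in MLN-primed cells and none higher (1 at an unadjusted limma p of 0.05), with a median of -1.42. In spleen-primed cells 22 were lower and Oas3, Mx1 and Cmpk2, named after their values were seen, were higher, with a median of -0.820. Over all genes tested, 13.1% were lower and 17.3% higher between the primed groups. Relative to naive cells, 33.2% were lower and 45.5% higher in MLN-primed cells, and 32.7% were lower and 43.1% higher in spleen-primed cells. Usp18, Zbp1 and Trim30a were named for the smallest adjusted p between the primed groups, so their difference there was fixed by the choice. By their means, Slfn1, Slfn2 and Slfn8 had the order of these genes across the groups, and Slfn3, Slfn4, Slfn5 and Slfn9 did not. Zbp1 was not called between spleen-primed and naive cells (-0.18 ± 0.11, limma adjusted p = 0.172). Some listed genes had another order, such as Mx1, with 1.22 FPKM in MLN-primed, 1.66 in spleen-primed and 0.834 in naive cells. Of the 25 listed genes with a promoter window, 10 hold the response element core in at least 1 of their windows, a share of 40%. This is a share of genes and not, as for all RefSeq windows above, of single windows.

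The enzymes and partners of transfer RNA cleavage were listed because of the reported role of Slfn2 protein. Ang, which encodes the nuclease angiogenin, was near 0, with 0.111 FPKM in MLN-primed, 0.112 in spleen-primed and 0.106 in naive cells, and was not tested. Of the 8 genes tested, 3 were higher and 2 lower in MLN-primed cells relative to spleen-primed ones, 3 higher and 2 lower in spleen-primed relative to naive cells, and 5 higher and 2 lower in MLN-primed relative to naive cells. Over all genes tested, 17.3% were higher and 13.1% lower in the first of these comparisons. The shares were 43.1% and 32.7% in the second, and 45.5% and 33.2% in the third. Whether this list differs from all genes was not tested. Nsun2, a methyltransferase that protects transfer RNAs from cleavage, averaged 63.3 FPKM in MLN-primed, 34.3 in spleen-primed and 33.0 in naive cells (0.87 ± 0.09 between the primed groups, limma adjusted p = 0.000146). This was opposite in direction to Slfn2. Rnh1, the ribonuclease inhibitor that binds angiogenin, averaged 80.2 FPKM in MLN-primed, 86.1 in spleen-primed and 30.3 in naive cells and did not differ by the test between the primed groups (limma adjusted p = 0.462). Rnaset2a and Rnaset2b, near-identical genes of a ribonuclease whose reads may be split between them, were lower in all 3 comparisons.

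The genes around the cluster were counted in the same way. Of 14 listed neighbours, among them Slfn10-ps and Slfn14, 8 were tested. Between MLN-primed and spleen-primed cells 2 were higher, Nle1 and Lig3, and none was lower, also at an unadjusted limma p of 0.05. Of all tested genes, 17.3% were called higher and 13.1% lower in that comparison. Nle1, a ribosome assembly factor, averaged 12.6 FPKM in MLN-primed, 5.62 in spleen-primed and 9.94 in naive cells. In spleen-primed cells 3 of the 8 were lower than in naive cells (Rffl, Nle1 and Slfn10-ps), 1 was higher and 4 were not called, and in MLN-primed cells 2 were lower (Rffl and Slfn10-ps), 4 were higher and 2 were not called. Over all genes tested, 32.7% were lower and 43.1% higher in spleen-primed cells, and 33.2% were lower and 45.5% higher in MLN-primed cells. Whether the neighbours differ from the Schlafen genes was not tested. Rffl, a ubiquitin ligase gene, was the neighbour outside the Schlafen genes that was lower in both primed groups, with 1.93 FPKM in MLN-primed, 2.07 in spleen-primed and 4.98 in naive cells.

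The genes whose log2 values ran most like each member over the 9 libraries were taken from 7738 genes with a mean of at least 5 FPKM in some group. The correlations rest on 3 groups of libraries and are descriptions only. For Slfn1 the highest were Ube2h (r = 0.999), Mbp (0.999) and the quiescence gene Cdkn1b (0.998). For Slfn2 they were Mxd4 (0.994), which encodes an antagonist of MYC at MAX, Slc9a9 (0.993) and Ppapdc2 (0.993). Mxd4 averaged 3.95 FPKM in MLN-primed, 11.7 in spleen-primed and 22.1 in naive cells. For Slfn5 they were Tmem108 (0.999), Ube2r2 (0.999) and Ampd1 (0.999), all lowest in spleen-primed cells by their means, and for Slfn8 they were Snrk (0.998), Rasgrp1 (0.997) and Fam117b (0.997). Rasgrp1, an activator of RAS downstream of the T cell receptor, averaged 15.1 FPKM in MLN-primed, 22.4 in spleen-primed and 92.9 in naive cells. For Slfn3 they were Tbc1d31 (0.996), Mdm1 (0.996) and Atp6v1c1 (0.996), and for Slfn9 Clasp1 (0.984), Hcfc1 (0.982) and Raver1 (0.977). Among the members themselves, Slfn1 ran most like Slfn8 (0.990), and Slfn5 ran opposite to Slfn3 (-0.980).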

How the data were processed

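RNA was extracted with a QIAGEN micro kit and sequenced from stranded messenger RNA libraries, per the labels' protocols. The deposited table gives FPKM per gene and library. Per the submitters' processing notes, the authors used TopHat and Cufflinks with the build mm10. Their versions, filters and use of strand, and the read length, were not stated in these sources. FPKM keep no read numbers, so the precision that depth would give is unknown. A second deposited table was identical byte for byte and was not used. Of 24067 rows, 131 without a symbol, which hold 0.0479% of the FPKM, were left out.

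The 10185 genes that reached 1 FPKM in 3 or more libraries entered limma-trend (limma 3.58.1, R 4.3.3) on log2(FPKM + 1) without further scaling. The model covered all 9 libraries, tests were two-sided and p-values were adjusted by Benjamini-Hochberg over all genes tested. The procedure was tested on simulated data. Tables, sequences and figures were made with Python 3.11.15, pandas 2.3.3, Biopython 1.88 and matplotlib 3.10.9. Promoter windows come from RefSeq (GRCm38.p6) and transcripts from GENCODE. Vsir and Adgre1 carry older symbols in the table, 4632428N05Rik and Emr1, and were matched by gene identifier. All 7 members are named, with listed genes given as counts, medians and examples, and the 3 most correlated genes of each tested member. The members, lists and alternatives were chosen with earlier results of these data known. Groups come from the sample titles. Deviations of same-numbered libraries correlated at 0.160, 0.116 and 0.236 for numbers 1, 2 and 3 between spleen-primed and naive cells. For MLN-primed and naive cells the values were 0.145, -0.241 and 0.116. Between the primed groups they were 0.645, -0.240 and 0.485, and libraries of different numbers ran there from -0.698 to 0.512. No alternative was added later. Rnf213 and Ly6g were not analysed here. Some listed genes enter the counts but their own values are not reported here.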

Additional observations from a re-analysis of the deposited data

How the results depend on the processing

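Among the results recomputed, none reversed in direction, and the counts of called Schlafen genes and of all called genes stayed within 1.5 times the reported ones. Over all alternatives the Schlafen genes called numbered 2 to 3 for MLN-primed against spleen-primed cells (3 as reported), 5 to 6 for spleen-primed against naive (5) and 5 to 7 for MLN-primed against naive (6). Genes called in all numbered 2139 to 3892, 6017 to 9149 and 6306 to 9746 in the same order, and 2139 to 3196, 7207 to 7911 and 7654 to 8095 with 1 library left out. Slfn1, Slfn2, Slfn3 and Slfn5 kept their direction and side of the threshold in all 20 alternatives of each comparison. Between the primed groups, Slfn8 also lost its call without a filter (-0.73, limma adjusted p = 0.0641) and without spleen-primed library 3 and MLN-primed library 1 together (-0.40, adjusted p = 0.124), where Slfn9 gained one (0.66, adjusted p = 0.00376). Slfn9 was called higher in spleen-primed than in naive cells under quantile normalisation (0.48, adjusted p = 0.0371), with only those groups in the fit (0.47, adjusted p = 0.0318) and without MLN-primed library 1 (0.47, adjusted p = 0.0266). Against naive cells, Slfn2 moved to -1.28 in spleen-primed cells under quantile normalisation, and without spleen-primed library 3 Slfn9 moved to 0.26 there (adjusted p = 0.278). The causes were not tested. A filter of 5 FPKM leaves Slfn9 out. Slfn4 was called higher against naive cells when no filter was used, in MLN-primed (0.36, adjusted p = 1.52e-05) and spleen-primed cells (0.34, adjusted p = 2.47e-05). With the replicate number as a block, 3, 5 and 6 Schlafen genes and 3382, 7928 and 8207 genes in all were called, and no Schlafen call changed. Scaling by median of ratios moved the median of all genes by -0.111 for spleen-primed against naive cells and -0.152 for MLN-primed against naive, and quantile normalisation by -0.168 and -0.187. Counts of the quiescence, interferon, transfer RNA and neighbour lists were recomputed too, those of the marker lists were not. Between the primed groups, 1 quiescence and 1 interferon gene were called higher without spleen-primed library 3, and 3 and 1 without it and MLN-primed library 1 together, against 0 as reported. In MLN-primed against naive cells, the interferon genes called higher numbered up to 3 (without those libraries together) instead of 0. Of the neighbours, 1 instead of 4 was higher in MLN-primed than in naive cells and 0 instead of 1 in spleen-primed than in naive cells after scaling by median of ratios or by quantiles. Other small counts of these lists moved by 1 or 2 genes.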
